A study of Mus musculus with 2 samples.

Results

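The clustered zinc finger genes are protein-coding mouse genes whose symbol is Zfp followed by a number and which lie in runs of at least 5 such genes, with at most 500 kb from the end of one gene to the start of the next. In the GENCODE M21 annotation 365 protein-coding genes have such a symbol, and 169 of them fall into 16 clusters. The other 196 lie outside clusters, and the annotation holds 21755 protein-coding genes in all. The clusters cover 13.4 Mb on 7 chromosomes, and 8 of the 16 clusters, with 73 members, lie on chromosome 7. The rule uses gene symbols and positions and no boundary value.

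The positions of chromatin boundaries come from in situ Hi-C, an assay that digests fixed chromatin in intact nuclei (here with DpnII), ligates DNA ends that lie close together and reads the ligated pairs. The material was 1 group of untreated mature olfactory sensory neurons that express the odorant receptor gene Olfr16 (MOR23), sorted by flow cytometry out of olfactory epithelium; the donors were adult mice of the MOR23-GFP line, of mixed sex and unspecified strain. Biological replicate 1 had 28000 cells and biological replicate 2 had 24400 cells. The authors called 7435 boundaries of 5 kb on both replicates combined, classed each as Strong or Weak and gave it a score. The list holds neither replicate values nor depth, so there is no spread between replicates and no test over samples is possible. The 95% intervals below (Clopper-Pearson for shares, exact Poisson for densities) cover counting error only. They treat genes as independent draws, although neighbouring members often share the same nearest boundary, so they can be too narrow. How many mice each replicate pooled is not stated in the labels.

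Most genes of this kind encode proteins with tandem C2H2 zinc fingers, each of which folds around a zinc ion and contacts a few bases of DNA. Many also carry a KRAB domain, which recruits TRIM28 (KAP1) and through it the histone methyltransferase SETDB1 and HP1 proteins, and such proteins are known for silencing transposable elements. The family grew by tandem duplication, so its genes lie side by side in clusters, and those clusters are known to carry heterochromatin marks in many cell types. A boundary in Hi-C separates stretches of chromosome that contact each other less across it than within them, and many mammalian boundaries lie at sites bound by CTCF or at active gene starts.

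The starts of only 2 clustered genes, Zfp871 and Zfp141, lay inside a boundary. The sequence before these starts is shown with that of 2 genes whose starts lay 0.360 kb (Zfp101) and 1.17 kb (Zfp712) from one, because these 4 are among the closest contacts between members and boundaries. Each is the 250 bases before the RefSeq start on GRCm38.p6, on the minus strand and written 5′ to 3′, with CG pairs in capitals. They lie at chr17:32788288-32788537 (Zfp871), chr7:42505754-42506003 (Zfp141), chr17:33394638-33394887 (Zfp101) and chr13:67061171-67061420 (Zfp712). Zfp568, at 1.05 kb, is left out because RefSeq held no promoter for it. Zfp871 has a second RefSeq promoter in the same boundary, at chr17:32787548-32787797 with 8 CG pairs, which is not shown.
Zfp871: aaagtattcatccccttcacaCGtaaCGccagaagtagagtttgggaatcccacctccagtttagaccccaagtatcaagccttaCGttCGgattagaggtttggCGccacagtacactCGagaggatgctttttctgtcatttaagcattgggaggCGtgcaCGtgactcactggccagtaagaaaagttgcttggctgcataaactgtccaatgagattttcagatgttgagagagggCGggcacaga
Zfp141: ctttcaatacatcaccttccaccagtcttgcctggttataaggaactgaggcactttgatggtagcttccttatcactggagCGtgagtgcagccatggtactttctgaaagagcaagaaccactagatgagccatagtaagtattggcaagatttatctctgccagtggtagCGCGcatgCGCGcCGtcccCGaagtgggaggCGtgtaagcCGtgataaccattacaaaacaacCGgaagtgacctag
Zfp101: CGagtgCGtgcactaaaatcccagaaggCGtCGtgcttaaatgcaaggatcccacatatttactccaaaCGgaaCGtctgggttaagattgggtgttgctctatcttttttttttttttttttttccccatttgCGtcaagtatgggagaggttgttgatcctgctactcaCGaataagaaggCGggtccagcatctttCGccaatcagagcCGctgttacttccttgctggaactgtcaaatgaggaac
Zfp712: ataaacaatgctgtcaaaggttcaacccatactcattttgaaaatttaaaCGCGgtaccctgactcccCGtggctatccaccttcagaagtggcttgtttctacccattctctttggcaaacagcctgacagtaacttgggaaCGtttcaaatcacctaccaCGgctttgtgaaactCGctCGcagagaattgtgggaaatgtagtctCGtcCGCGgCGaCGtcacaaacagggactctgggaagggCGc
These stretches hold 9, 10, 11 and 13 CG pairs in that order, and with the 50 bases after the start, as in the 300-base promoters of the table, 12, 13, 13 and 16. The RefSeq table matched 148 of the 169 members with 162 promoters of 300 bases, and their median was 11.5 CG pairs (quartiles 8 and 18) with a GC content of 53.3%, against 7 CG pairs (quartiles 3 and 20) and 53.0% over all 32619 promoters of the table. Those promoters belong to 26794 genes, more than the 21755 protein-coding genes of the annotation, so the comparison is not limited to protein-coding genes as the members are. A match to the 12-letter CTCF consensus, searched on both strands, was in 0 of the 162 member promoters, against 0.561% of all promoters.

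Matches to that CTCF consensus within 10 kb of a boundary were found at 8 of the 39 boundaries inside the clusters (20.5%, 95% interval 9.30 to 36.5%) and at 4 of the 32 boundaries that flank them, that is, the first one beyond each cluster end (12.5%, 3.51 to 28.99%). Over all boundaries the share was 23.1%. A match is a stretch of letters and not a measured binding site. The 4 examples below show how such matches lie at boundaries of different rank, each as 30 bases with the 12 matched letters in capitals.
chr7:28050313-28050342, plus strand: aaggtttctCCAGTAGATGGCgcggccgag
chr7:128023133-128023162, plus strand: acctactccCCAGTAGATGGCgctgttttg
chr17:22018927-22018956, plus strand: ggctatggaCCACCAGAGGGCaatgaagta
chr4:145548843-145548872, plus strand: gggatagcgCCACCAGGTGGCagcaggtac
The first match lies within the boundary of score 1.15 between Zfp850 and Zfp36, and the second within the flanking boundary of score 1.62 beyond Zfp646 and Zfp668. The third is in Zfp943, left of a boundary of score 0.632, and the fourth lies right of the boundary in Zfp990, whose score of 0.208 is the lowest of all 39.

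The proteins were checked against the family name. The spacing of a C2H2 finger (2 residues between the cysteines, 12 to the first histidine, 3 to 5 between the histidines) occurred at least once in 167 of the 169 clustered genes and 3 or more times in 164, with a median of 12 fingers (quartiles 9 and 15), against a median of 9 in the 196 Zfp genes outside clusters. Zfp646 had the most, 27. The 2 members without a match were Zfp36, a protein with fingers of another type that promotes mRNA decay, and Zfp414. A stretch like the KRAB A box, with 13 or more of 33 consensus letters, was found in 136 clustered genes (80.5%), against 83 unclustered ones (42.3%) and 1.55% of all protein-coding genes. All members had it in 6 clusters, and in the cluster from Zfp628 to Zfp580 0 of 6 members did. Members thus differ in kind between clusters, and strand was evenly split, with 85 genes on the plus and 84 on the minus strand.

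Few clustered genes began at a boundary. A start lay within 10 kb of a boundary for 11 of 169 members (6.51%, 95% interval 3.29 to 11.3%), against 18 of 196 Zfp genes outside clusters (9.18%, 5.53 to 14.1%) and 12.4% of all protein-coding starts. The interval of the clustered genes lies below the genome-wide share and overlaps that of the unclustered genes. The 18 members of the chromosome 4 cluster had 0 starts this near. Without them the share was 7.28% (11 of 151) and no interval was computed for it, so the separation is shown only for all clusters together. The median distance to the nearest boundary was 82.1 kb (quartiles 44.0 and 132.6 kb), against 67.2 kb for unclustered Zfp genes and 58.4 kb for all protein-coding genes. Starts farther than 100 kb from any boundary were 62 of 169 (36.7%), against 31.6% of unclustered Zfp genes and 27.6% of all protein-coding genes. Starts inside a boundary made up 1.18% of members, against 3.25% of all protein-coding genes.

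**Figure D1:**
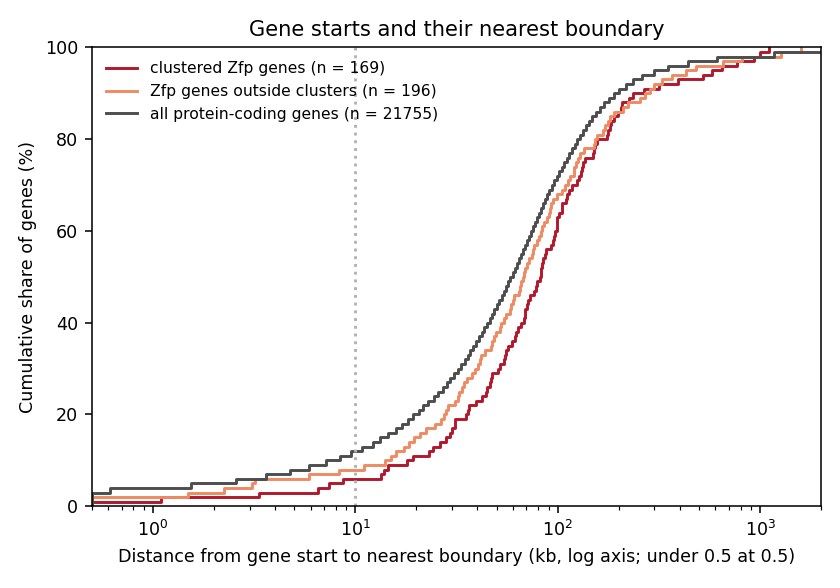
Cumulative share of genes (%) against the distance from the gene start to the nearest boundary (kb, log axis) for clustered Zfp genes, Zfp genes outside clusters and all protein-coding genes. The curve of the clustered genes reaches 6.51% at 10 kb (dotted line), where that of all protein-coding genes is at 12.4%.

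The 11 members near a boundary were spread over 9 clusters, and 9 of their boundaries were Weak, as are 3581 of all 7435 boundaries. A Strong boundary lay within 10 kb of 2 of 169 member starts (1.18%), against 7.88% of all protein-coding starts. Zfp871, a gene with 15 fingers and a KRAB-like stretch, started inside a Weak boundary of score 0.226, and Zfp141 (10 fingers) inside one of 0.229. Zfp101 started 0.360 kb from a Strong boundary of score 0.544 that lies upstream of it. Zfp568, which represses a placental Igf2 transcript in the mouse, started 1.05 kb from a Weak boundary of 0.251 that lies within its body. The boundaries at Zfp871, Zfp141 and Zfp568 score below the median of 0.520 over all 7435 boundaries, and the one at Zfp101 scores just above it.

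Zfp712 started 1.17 kb from a Weak boundary of 0.422, and Zfp54 3.23 kb from one of 0.347. Zfp526 lay at 6.42 kb (0.443), Zfp667 at 6.58 kb (0.316), Zfp282 at 7.20 kb (0.323) and Zfp626 at 7.80 kb (0.355). Zfp94 lay 8.34 kb from the only other Strong boundary, of score 0.730. The median score was 0.347, and 9 of the 11 scores were below the median of the list. Of the 11 boundaries, 6 lay upstream of the start, 3 downstream and 2 on it. The clusters Zfp180 to Zfp526 and Zfp871 to Zfp414 had 2 such members each, 7 clusters had 1 and 7 had none.

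Genes with and without a KRAB-like stretch were also set side by side. Of clustered genes with it, 10 of 136 (7.35%, 95% interval 3.58 to 13.1%) started within 10 kb of a boundary, and of those without it 1 of 33 (3.03%, 0.0767 to 15.8%), which was Zfp526. Outside clusters the shares were 5 of 83 (6.02%) with it and 13 of 113 (11.5%) without it. Over all protein-coding genes with the stretch, 25 of 337 (7.42%, 4.86 to 10.8%) lay near a boundary. All these intervals overlap. The 171 other protein-coding genes whose bodies overlap the cluster spans had 14 starts near a boundary (8.19%, 4.55 to 13.4%), and its interval overlaps that of the members.

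The clusters are dense in genes, with 25.2 protein-coding starts per Mb against 8.50 over the genome, and starts were therefore also compared at like density. With 5 to 9 other starts within 250 kb, 2 of 36 members (5.56%) were near a boundary, against 13.8% of other protein-coding genes. With 10 to 19 it was 8 of 81 (9.88%) against 12.3%, with 20 or more 1 of 40 (2.50%) against 11.7%, and with 0 to 4 it was 0 of 12 against 11.5%. The share of members was lower in all 4 ranges, although in each of them the 95% interval of the members held the other share (for 20 or more, 0.0633 to 13.2%).

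The boundaries were not fewer per length inside the clusters. The 16 spans held 39 boundaries, or 2.90 per Mb (95% interval 2.06 to 3.96), and the genome also held 2.90 per Mb (2.84 to 2.97). Of the 39, 19 were Strong (48.7%, 32.4 to 65.2%), against 51.8% of all boundaries. Their median score was 0.462 (quartiles 0.335 and 0.697), against 0.520 over the list, and 5 scored at least 1, where 23.7% of all boundaries did. The flanking boundaries had higher scores: 25 of 32 were Strong (78.1%, 60.03 to 90.7%), their median was 0.736 and 10 scored at least 1. The intervals of the Strong shares inside and outside overlap, from 60.03 to 65.2%.

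**Figure D2:**
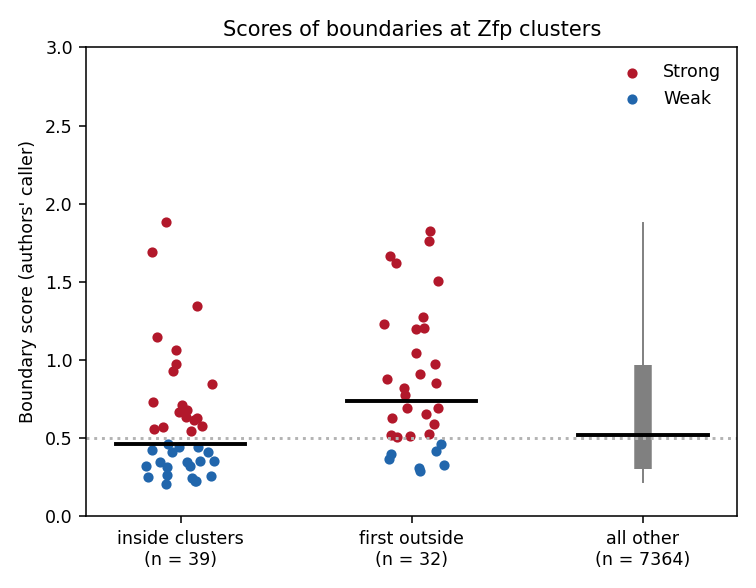
Boundary score (y axis, the authors' caller) for the 39 boundaries inside Zfp clusters, the 32 first boundaries outside and all other boundaries, with Strong boundaries in red, Weak ones in blue and black bars at the medians. For the other boundaries the thick bar spans the quartiles and the thin line the 5th to 95th percentile; the medians are 0.462 inside and 0.736 outside, and the dotted line marks 0.5, the border between the classes.

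Gene annotation was compared between the boundaries inside and at the flanks. A protein-coding start lay within 10 kb of 20 of the 39 inside (51.3%, 95% interval 34.8 to 67.6%) and of 20 of the 32 flanking ones (62.5%, 43.7 to 78.9%), against 27.8% of all boundaries. The intervals inside and at the flanks overlap. Inside, 11 of these 20 had a member start that near and 9 had only other genes, and at the flanks 0 had a member. Zfp genes with a letter after the number are not members and count as other genes here. Examples, named after their values were seen, are Zfp729b, 4.71 kb from a boundary inside, and Zfp607b, 0.661 kb from a flanking one. With such symbols in the rule, 14 of 184 clustered starts (7.61%) lay within 10 kb of a boundary. The body of a protein-coding gene overlapped 20 boundaries inside and 22 at the flanks, against 44.9% of all boundaries. The clusters' higher gene density moves with these shares, and its part in them was not tested.

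Bodies of members held 11 of the 39 boundaries. Of these 39, 20 are Weak, and of all 7435 boundaries 3581 are. Zfp160 held a Strong boundary of score 0.972 in exonic sequence, 16.1 kb downstream of its start, and Zfp943 held a Strong one of 0.632 in an intron, 62.4 kb downstream. The other 9 were Weak: those in Zfp990 (0.208), Zfp871 (0.226), Zfp141 (0.229), Zfp458 (0.242), Zfp568 (0.251), Zfp398 (0.323), and Zfp626 (0.355) overlapped exons and untranslated sequence, and those in Zfp229 (0.319) and Zfp712 (0.422) lay in introns. Of these 11 scores, 1, that of Zfp160, was above 0.7. Among boundaries that are neither inside nor flanking a cluster, the 62nd percentile of the score is 0.704.

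Cluster ends were compared with bins of the genome and with the ends of protein-coding genes. A boundary lay within 25 kb of 9 of the 32 ends (28.1%, 95% interval 13.7 to 46.7%), against 16.0% of 5 kb bins of the genome and 25.2% of the outer ends of protein-coding genes. Within 50 kb there were 19 ends (59.4%), against 30.4% of bins and 44.7% of gene ends, and farther than 100 kb there were 6 (18.8%), against 45.1% and 27.5%. The median distance was 43.1 kb, against 87.5 kb for bins and 57.4 kb for gene ends. Within 10 kb there was 1 end, that of Zfp560 at 5.14 kb. At 25 and 50 kb more cluster ends than bins had a boundary, and within 10 kb fewer did (3.12% against 7.26%). The interval at 25 kb holds both the share of bins and that of gene ends, and the share within 10 kb rests on 1 end. No interval was computed at 50 kb, so a difference from gene ends is not shown there.

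The 9 near ends were those of Zfp990, Zfp551, Zfp526, Zfp84, Zfp560, Zfp712, Zfp160, Zfp871 and Zfp414, at 5.14 to 24.2 kb. For 6 of them the boundary lay inside the cluster and for 3 outside. Of these boundaries 3 were Strong and 6 Weak, where 3581 of all 7435 are Weak. Both ends were near in the cluster from Zfp871 to Zfp414, 1 end in 7 clusters and none in 8. Counted in 50 kb windows from the ends, the first 50 kb inside held 10 boundaries (6.25 per Mb, 95% interval 2.997 to 11.5), and the first and second 50 kb outside held 9 each (5.62 per Mb, 2.57 to 10.7). The other windows to 300 kb on each side held 1.33 to 4.67 per Mb, against 2.90 in the genome.

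**Figure D3:**
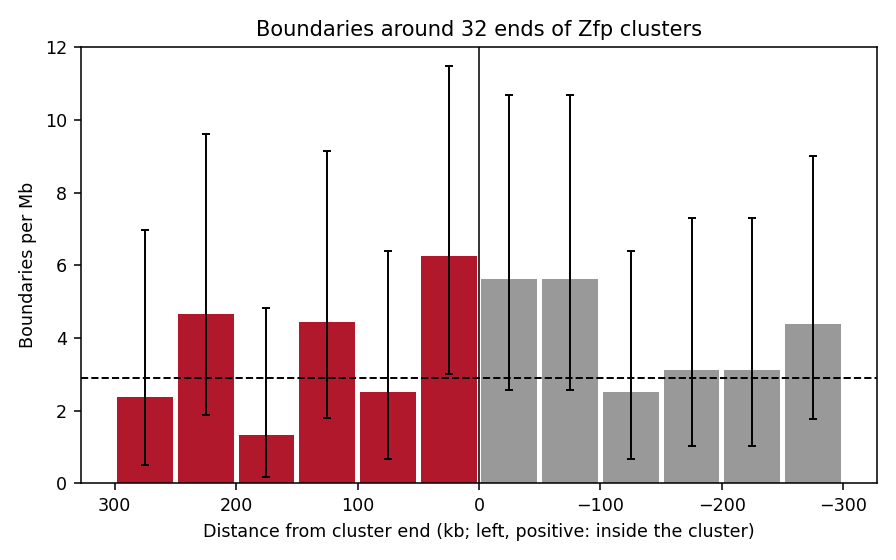
Boundaries per Mb (y axis) in 50 kb windows by distance from the 32 cluster ends (kb; left of the line and red inside the cluster, right and grey outside), with exact 95% Poisson intervals and the genome density of 2.90 per Mb as a dashed line. The 3 windows next to the ends, 1 inside and 2 outside, stand at 6.25, 5.62 and 5.62 per Mb.

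Beyond the clusters, the first boundary lay a median of 83.9 kb from the end, from 5.14 kb at Zfp560 to 1893.6 kb at Zfp712. Beside Zfp712, Zfp786 (984.3 kb) and Zfp160 (968.9 kb) were the only ends with more than 900 kb to the next boundary outside. At 7 of the 32 flanking boundaries (21.9%, 95% interval 9.28 to 40.0%) the nearest protein-coding start belonged to an olfactory or vomeronasal receptor gene, at 3 of the 39 inside (7.69%), and at 1.71% of all boundaries. This gene class was chosen after the values were seen. Examples, also chosen after their values were seen, are Vmn1r55 with its start on the flanking boundary beyond Zfp580 (score 0.690) and Olfr18 with its start on the one beyond Zfp560 (0.778).

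Neighbouring members were separated by a boundary in 28 of 153 pairs (18.3%, 95% interval 12.5 to 25.4%), against 23.0% of neighbouring protein-coding starts. Under 100 kb the share of members was lower at each spacing: 0 of 33 member pairs under 25 kb (up to 10.6%) against 5.23%, 3 of 51 from 25 to 50 kb (5.88%) against 14.3%, and 5 of 33 from 50 to 100 kb (15.2%) against 27.6%. Over 100 kb it was 20 of 36 (55.6%) against 59.2%. The 95% interval of the members held the other share in each of these ranges (1.23 to 16.2% from 25 to 50 kb and 5.11 to 31.9% from 50 to 100 kb). Between genes on the same strand, the arrangement that tandem duplication leaves, it was 13 of 98 pairs (13.3%, 7.26 to 21.6%) against 22.5%. Pairs facing each other had 9 of 27 (33.3%) against 26.0%, and pairs facing away 6 of 28 (21.4%) against 21.0%. Median spacing also differed, at 80.6 kb in pairs facing each other, 40.2 kb on the same strand and 29.4 kb in pairs facing away, and its part in these shares was not tested.

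Between boundaries, members lay in blocks, with each gene assigned by its start against the midpoints of the boundaries, so that a boundary can overlap the first or last gene of a block. Of the 44 intervals that held members, 15 held 5 or more and together 110 of the 169 genes, and 13 held 1 member each. The block of 17 members on chromosome 4 lay in an interval of 2545 kb. Blocks of 10 members lay in 400 kb from Zfp180 to Zfp94, in 340 kb from Zfp458 to Zfp748 and in 610 kb from Zfp871 to Zfp101, and a block of 9 in 235 kb from Zfp84 to Zfp568. The median interval with members was 257.5 kb, near the 265 kb between adjacent boundaries of the whole list.

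**Figure D4:**
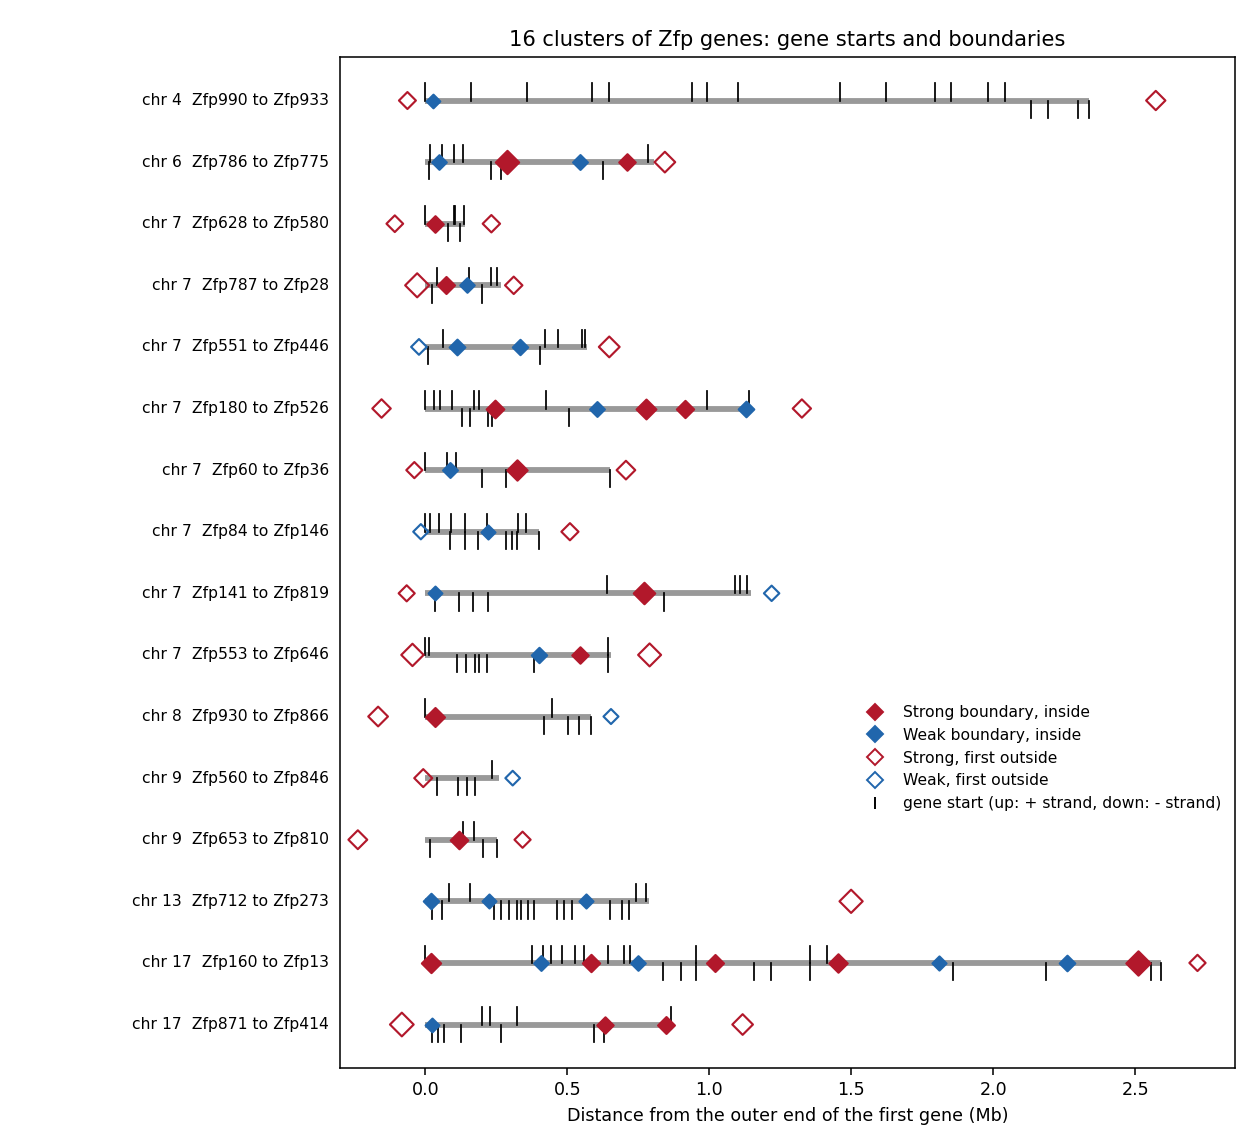
The 16 clusters drawn to 1 scale by distance (Mb) from the outer end of their first gene, with gene starts as ticks (up, plus strand; down, minus strand), boundaries inside as filled diamonds and the first boundary outside as open ones, in red for Strong and blue for Weak, larger for a higher score. The left outside boundaries of the clusters that begin with Zfp786, Zfp712 and Zfp160 lie 984.3, 1893.6 and 968.9 kb away and are not drawn; the cluster from Zfp990 to Zfp933 has 1 boundary and the one from Zfp160 to Zfp13 has 9.

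The chromosome 4 cluster, Zfp990 to Zfp933 (chr4:145510759-147848366), had 18 members, all with a KRAB-like stretch, over 2.34 Mb and a single boundary inside. That boundary, in Zfp990, is Weak with a score of 0.208, and gave 0.428 boundaries per Mb (95% interval 0.0108 to 2.38). The 5 members farthest from any boundary were all here: Zfp989 at 1108.0 kb, Zfp993 at 1071.0 kb, Zfp981 at 962.0 kb, Zfp991 at 948.0 kb and Zfp992 at 909.0 kb. Members farther than 400 kb numbered 12, all in this cluster, while the farthest elsewhere was at 299.3 kb. Only 30.5% of 50 bp words sampled from this cluster occurred once in the genome, against 88.6% over the genome, and 18.5% of its bases are undetermined in the assembly. Of its 18 starts, 14 lay in 5 kb bins with under 60% unique words, against 2 of 151 in the other clusters, and 0 of these 16 were near a boundary. Whether the missing unique sequence bears on the missing boundaries was not tested.

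The cluster from Zfp160 to Zfp13 on chromosome 17 (chr17:21008903-23599487) was the largest, with 23 members over 2.59 Mb, and held 9 boundaries, 5 of them Strong, at 3.47 per Mb. Its members all had a KRAB-like stretch, as on chromosome 4, and its unique share was 71.1%. The boundary of score 1.88 at chr17:23515001-23520000, the highest inside any Zfp cluster, lay 44.2 kb from Zfp213 and overlapped a processed pseudogene. The second chromosome 17 cluster, Zfp871 to Zfp414 (chr17:32765496-33631779), had 11 members and 3 boundaries of 0.226, 0.544 and 0.615, with the first and last within 25 kb of its ends. Strong boundaries of 1.76 and 1.20 flanked it.

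On chromosome 13, the 19 members from Zfp712 to Zfp273 (chr13:67038596-67827002) had a median of 15 fingers and 15 of them lay on the minus strand. Its 3 boundaries were all Weak, at 0.422, 0.242 and 0.255. To the left no boundary followed for 1893.6 kb, and to the right the next one, of score 1.67, lay 708.0 kb away. On chromosome 6, the 9 members from Zfp786 to Zfp775 (chr6:47819266-48623227) had 4 boundaries, or 4.98 per Mb. The boundary at chr6:48105001-48110000, with a score of 1.69 the second highest inside a cluster, was intergenic and 18.4 kb from the start of Zfp746, which encodes PARIS, a repressor of the PGC-1α gene. It and a Weak boundary of 0.323 in Zfp398 enclosed a block of 5 members in 240 kb.

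Of the 8 clusters on chromosome 7, the one from Zfp180 to Zfp526 (chr7:24081924-25227507) had the most boundaries, 5, of which 3 were Strong and the highest scored 1.06. Its first 10 members, up to Zfp94, lay in an interval free of boundaries between scores of 0.851 and 0.730, and its other 4 members lay among the rest. The cluster from Zfp84 to Zfp146 (chr7:29768552-30169750) had 15 members in 0.401 Mb, with 93.8% unique words, and 1 boundary, the Weak one of 0.251 in Zfp568. With 14 and 15 members, these clusters held 5 boundaries and 1.

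The cluster from Zfp60 to Zfp36 (chr7:27731389-28380253) had 6 members and 2 boundaries of 0.355 and 1.15. The higher one, at chr7:28050001-28055000, covered the start of Psmc4 (a proteasome ATPase subunit gene, chosen after its values were seen), 35.9 kb from Zfp850, and separated Zfp36 from the C2H2 genes. The cluster from Zfp141 to Zfp819 (chr7:42473386-43618285) had 9 members, 71.7% unique words and 2 boundaries, of which the one of 1.35 lay 68.3 kb from Zfp715. From Zfp553 to Zfp646 (chr7:127233061-127885996), 10 members had 2 boundaries of 0.414 and 0.557 between flanking ones of 1.51 and 1.62.

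The 3 smaller clusters on chromosome 7 had 1 or 2 boundaries each. Zfp628 to Zfp580 (chr7:4915217-5053723), the cluster with no KRAB-like member, had 6 members in 0.139 Mb and 1 Strong boundary of 0.580. Zfp787 to Zfp28 (chr7:6131491-6396915) had 2 of 0.635 and 0.316 and, 26.5 kb beyond Zfp787, a flanking boundary of 1.83, the highest at any flank. Zfp551 to Zfp446 (chr7:12415153-12985714) had 2 Weak ones of 0.462 and 0.414.

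The remaining clusters had 0 or 1 boundary inside. The cluster from Zfp560 to Zfp846 (chr9:20345136-20605409) was the only one without any: its 5 members, all KRAB-like, lay in an interval of 315 kb between boundaries of 0.778 and 0.330, with 89.7% unique words. The 5 members from Zfp653 to Zfp810 (chr9:22055411-22307648) had 1 Strong boundary of 0.714, 13.1 kb from Zfp872. The 6 members from Zfp930 to Zfp866 (chr8:69209038-69791178) had 1 Strong boundary of 0.932, 31.0 kb from Zfp930, and 67.7% unique words. Of all 16 clusters, only the one on chromosome 4 had a 95% interval of its density that did not hold the 2.90 per Mb of the genome. The length of that cluster counts its undetermined bases (18.5%), while the genome density was taken over bins under 50% undetermined. The 2 densities are therefore not on like terms, and the number of intervals looked at was not allowed for. Over determined bases alone, the density of this cluster and its upper limit would both be higher. No interval was computed for that length, so the exception is not shown to hold on like terms.

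**Figure D5:**
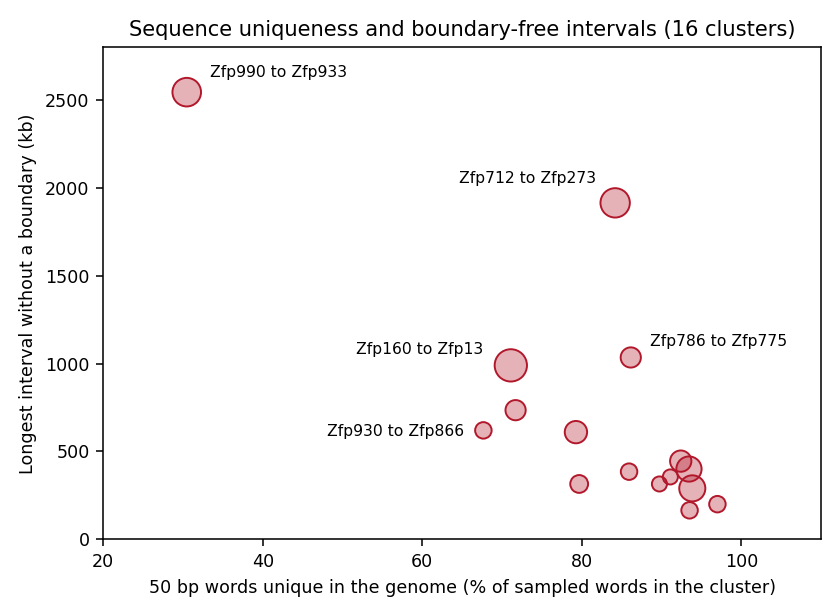
Longest interval without a boundary that touches each of the 16 clusters (kb) against the share of sampled 50 bp words in the cluster that occur once in the genome (%), with circle area by number of members. The chromosome 4 cluster (30.5% unique, 2545 kb) stands apart. The cluster from Zfp712 to Zfp273 has 84.2% unique words and touches an interval of 1915 kb that lies mostly to its left. Unique words were counted inside the clusters only, so this share does not describe parts of an interval that lie outside.

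Sequence makeup was compared over all clusters together. Unique words made up 73.7% of the clusters, against 88.6% of the genome, and masked repeats 40.2% against 34.3%. In 5 kb bins with at least 60% unique words, the clusters had 3.71 boundaries per Mb and the genome 3.07. The 5 clusters with a density below that of the genome had a median of 71.7% unique words (30.5 to 93.8%), against 86.1% (71.1 to 97.0%) in the other 11. The shares of unique sequence move with the densities and overlap between these clusters, and their part was not tested.

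Other tandem families were measured by the same rule. Boundaries per Mb were 2.90 in the 16 Zfp clusters, against 2.45 (95% interval 1.92 to 3.07) in 33 olfactory receptor clusters, 1.32 (0.721 to 2.21) in 10 Vmn1r clusters and 1.66 (0.999 to 2.59) in 9 Vmn2r clusters. Starts within 10 kb of a boundary made up 6.51% of clustered Zfp genes, against 5.68%, 3.98% and 2.04% in those families. Ends within 25 kb made up 28.1% for Zfp clusters, against 37.9%, 45.0% and 5.56%. The start shares of all 4 families lie below the 12.4% of all protein-coding genes.

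The genes that encode the partners of KRAB proteins were looked at last. Of 12 co-factor genes, 0 had a start within 10 kb of a boundary, where the share over all protein-coding genes is 12.4%, so a count of 0 in so few genes does not set them apart. The nearest was Daxx, an H3.3 chaperone, at 24.4 kb from a boundary of 1.20 that is also the one beyond Zfp414. Trim28 lay 60.9 kb from a boundary of 1.23, which is also the first one beyond Zfp446, and Setdb1 67.2 kb from one of 1.20. The farthest was Smarcad1, a chromatin remodeller, at 102.6 kb. The limits of the rule were also checked: the 6 runs of 4 genes just outside it held 24 genes, 0 boundaries in 2.29 Mb and 0 starts near one, and the 2 runs of exactly 5 held 10 genes, 1 boundary in 0.513 Mb and 0 starts near one. Beside these counts stand 12.4% of all protein-coding starts and 2.90 boundaries per Mb in the genome. The largest gap within a cluster was 484.9 kb, between Zfp575 and Zfp574, and the smallest between runs was 695.4 kb, between Zfp317 and Zfp560.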

How the data were processed

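In situ Hi-C was measured in 2 biological replicates of 1 group, and the values used are 1 list of boundaries. The authors called them on a contact matrix that combined both replicates, on GRCm38, per the series design text and the submitters' processing notes. The deposited score and class of each boundary are the caller's own; the score ranges from 0.200 to 4.38 and was used only to describe and rank boundaries within the list. The caller, its window, the score's formula, the aligner and the read depth were not given in the sources used here. All columns of the list were used, so 0 were left out.

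Genes came from GENCODE M21 and sequence from the GRCm38 genome. Coordinates are 1-based. A distance ran from the annotated 5′ end of a gene, or the outer end of a cluster, to the nearest base of a boundary. Inside meant a boundary's midpoint between the outer ends of the first and last member. Fingers and KRAB-like stretches were searched in the longest annotated coding sequence of each gene, and KRAB likeness was the ungapped identity to a 33-letter consensus with 13 or more identical letters. Sequence uniqueness is the share of 50 bp words, sampled every 100 bp, that occur once in the genome on either strand. Promoters were taken from RefSeq (GRCm38.p6).

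No test was run, because the pooled list has no replicate values. Shares carry Clopper-Pearson and densities exact Poisson 95% intervals. Members and lists were chosen with earlier results of these data known. Genes named were the first and last member of each cluster, members within 10 kb of a boundary, the 5 farthest, the member nearest the highest-scored boundary inside each cluster, members whose body holds a boundary and 12 co-factors; neighbours that bound a block or a gap, and members singled out for their protein, were named after their values were seen. Run finding and word counting were checked on simulated data. Tools were Python 3.11.15, NumPy 2.4.6, pandas 2.3.3, SciPy 1.17.1, Numba 0.67.0, Biopython 1.88 and Matplotlib 3.10.9. Gap, cluster size, class, window and cluster choice were varied as given in the closing section.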

Additional observations from a re-analysis of the deposited data

How the results depend on the processing

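Of 66 alternative values, 51 stayed within their counting error or within 1.5 times the count, and 15 moved. All 16 clusters lie on autosomes, so the setting with autosomes only left every cluster value unchanged and altered only the genome values beside them. Other windows, and Strong boundaries alone, measure other quantities than the main values. The 2 counts therefore do not gauge how stable the results are. The share of starts within 10 kb was below that of all protein-coding genes in all 14 settings tried. It was 1.18% against 7.88% with Strong boundaries only, 1.18% against 3.25% for starts inside a boundary, 14.2% against 24.6% within 25 kb and 29.6% against 44.0% within 50 kb. Cluster ends near a boundary were 50% (7 of 14) for clusters of at least 10 members and 9.38% against 8.28% of bins with Strong boundaries only. They were 3.12% (1 of 32) against 7.26% within 10 kb and 59.4% against 30.4% within 50 kb. The excess over bins was thus small for Strong boundaries, and the lower share within 10 kb rests on 1 end. Of the outer ends of protein-coding genes, 12.3% lay within 10 kb, 25.2% within 25 kb and 44.7% within 50 kb. With Strong boundaries only, the clusters held 1.41 per Mb against 1.51. Clusters without a boundary were 1 of 16, and 5 with gaps of at most 200 kb, 0 with gaps of at most 1 Mb, 13 (of 32) with at least 3 members, 0 with at least 10 and 5 with Strong boundaries only. The median score inside was 0.347 with gaps of at most 200 kb. Settings without the chromosome 4 cluster and without the cluster from Zfp160 to Zfp13 were chosen after seeing the data; leaving out the chromosome 4 cluster, the density was 3.42 per Mb, the median score 0.503 and the start share 7.28%. No paired analysis was possible because both replicates were pooled into 1 list, and for the same reason neither replicate could be left out. A wider window can only hold as many or more starts or ends, and a narrower one as many or fewer. A list cut to Strong boundaries can only hold as many or fewer boundaries. The direction of those shifts therefore follows from the settings. Depth is unknown, and the cause of the other shifts was not tested.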
